A study of Mus musculus with 11 samples.

Results

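SINEs are short interspersed elements, short repeats that encode no protein and were copied into the genome by the enzymes of LINE elements. SINE copies were examined here in RNA of mouse testes collected at postnatal day 5, when the germ cells are spermatogonia surrounded by Sertoli, Leydig and peritubular cells. The members were the rows of the deposited per-copy table that carried the class SINE and a value above 0 in at least 1 library, which gave 319356 copies of 1531391 SINE copies listed, among 578629 copies of all transposable element (TE) classes above 0. By family they were 116690 Alu copies (called B1 in mouse), 100324 B2, 71013 B4, 19851 MIR, 11256 ID and 222 Deu copies. The same RNA was also counted per subfamily, over 35 SINE subfamilies.

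The 11 libraries came from 4 genotypes. WT testes (n = 2) were wild type. Dnmt3C KO testes (Dnmt3CKO/KO, n = 3) lacked, in every cell of the body, the DNA methyltransferase that methylates promoters of young retrotransposons in fetal male germ cells. In Nrf1 cKO testes (Nrf1KO/KO in the labels, n = 3) the gene of the transcription factor NRF1 had, per the breeding in the methods, a knockout allele in every cell and a floxed allele removed by a Cre driven by Ddx4, so that germ cells lost both copies and somatic cells kept only the floxed one. The dKO testes (Dnmt3CKO/KO Nrf1KO/KO, n = 3) carried both deletions. The labels call the samples germ cells and also name spermatogonia and somatic cells as their content, whereas the study's methods describe whole testis. Controls were littermates where the study could use them. RNA was selected by its poly(A) tail and sequenced with the strand kept. The comparisons ask whether SINE RNA depends on DNMT3C, on NRF1 in germ cells, or on both.

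B1 descends from the 7SL RNA of the signal recognition particle, and B2, ID and MIR descend from transfer RNAs. B4 joins an ID-like and a B1-like part, and MIR is the oldest of these families, fixed before mouse and human lines split. An intact SINE carries its own promoter for RNA polymerase III, whose B box is bound by TFIIIC, and a B2 copy also carries AATAAA signals near its end. Many more copies sit inside introns and are read as part of a polymerase II transcript, so a SINE read in a poly(A) library can come from a host pre-mRNA, from read-through RNA or from a SINE transcript.

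No SINE subfamily passed the test in any of the 8 comparisons of genotypes, at an adjusted p under 0.01. Levels are given as CPM, counts scaled to the library size with TMM normalisation factors. The SINE total was 14893 ± 18.6 CPM (SD, n = 2) in WT, 11817 ± 1062 (n = 3) in Dnmt3C KO, 9445 ± 2323 (n = 3) in Nrf1 cKO and 13151 ± 1735 (n = 3) in dKO. The subfamilies differed in where their reads lay. Reads of B1, B3, B4, ID and MIR copies lay mostly in introns of genes on the copy's own strand. Most reads of B2_Mm1a and B2_Mm1t, the youngest B2 subfamilies, were assigned outside genes or on the strand opposite to the gene. Reads that fit several copies are divided among them, and the effect of this on place was not tested. These young B2 subfamilies also varied most between libraries of 1 genotype.

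The sequences below show how the young B2 subfamilies resemble each other and differ from the older SINEs. Each is the copy with the most reads among those of near full length whose bases the reference tables hold. Positions are on GRCm38 (mm10), bases run 5′ to 3′ along the copy's own strand, and capitals mark a match to the B box letters GTTCNANNC or to AATAAA. The sequences come from GENCODE M21 noncoding exons, or for B3 from a RefSeq promoter window on GRCm38. The B2_Mm1a copy lies at chr17:73259246-73259430 on the minus strand, antisense to a lincRNA exon, the B2_Mm1t copy at chr3:61359524-61359699 on the plus strand, antisense to an exon of Gm37696, and the B2_Mm2 copy at chr11:20145970-20146162 on the plus strand, antisense to an exon of Gm12031.
B2_Mm1a_dup16991: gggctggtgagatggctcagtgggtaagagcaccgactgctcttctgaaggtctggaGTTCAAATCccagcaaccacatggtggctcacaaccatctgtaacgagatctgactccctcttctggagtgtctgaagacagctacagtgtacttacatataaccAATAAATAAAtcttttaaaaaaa
B2_Mm1t_dup3494: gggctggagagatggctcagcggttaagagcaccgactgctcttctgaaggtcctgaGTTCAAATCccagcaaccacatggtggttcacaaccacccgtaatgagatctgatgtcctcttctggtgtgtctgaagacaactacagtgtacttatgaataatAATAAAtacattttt
B2_Mm2_dup57994: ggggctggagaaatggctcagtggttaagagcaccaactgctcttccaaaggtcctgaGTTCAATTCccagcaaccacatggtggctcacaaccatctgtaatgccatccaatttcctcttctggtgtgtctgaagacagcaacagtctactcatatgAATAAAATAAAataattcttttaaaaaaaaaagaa

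In WT, Dnmt3C KO, Nrf1 cKO and dKO libraries the B2_Mm1a copy above had 19 and 84, 21, 46 and 22, 25, 51 and 7, and 28, 68 and 0 reads. The B2_Mm1t copy had 34 and 83, 26, 50 and 35, 20, 35 and 6, and 28, 93 and 26 reads in the same order, and the B2_Mm2 copy had 30 and 68, 37, 52 and 35, 6, 28 and 10, and 35, 122 and 51. These reads are not scaled to depth. The genotypes overlapped for the B2_Mm1a and B2_Mm1t copies, each Nrf1 cKO library was below every other library for the B2_Mm2 copy, and WT replicate 2 was above WT replicate 1 for all 3. Aligned to each other, the B2_Mm1a and B2_Mm1t copies were 89.2% identical, the B2_Mm1a and B2_Mm2 copies 85.4%, and the B2_Mm1t and B2_Mm2 copies 87.5%.

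An older B2 relative (B3), a B1, an ID and B1 composite and a MIR copy are shown for contrast. They lie at chr8:70029552-70029738 on the minus strand in an intron of Mau2, at chr15:99472061-99472194 on the plus strand antisense to an exon of Bcdin3d, at chr1:171423722-171423946 on the minus strand in a noncoding exon of Gm26641, and at chr7:28921711-28921843 on the plus strand antisense to an exon of Gm44699. The B3 and MIRb copies held neither motif.
B3_dup67221: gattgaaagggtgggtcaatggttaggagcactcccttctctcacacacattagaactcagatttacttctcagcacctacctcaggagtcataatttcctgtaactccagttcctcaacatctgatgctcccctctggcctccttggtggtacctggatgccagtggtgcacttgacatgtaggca
B1_Mus1_dup82501: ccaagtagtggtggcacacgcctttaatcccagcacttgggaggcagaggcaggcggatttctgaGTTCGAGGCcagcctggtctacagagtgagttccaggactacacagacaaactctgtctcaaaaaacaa
ID_B1_dup6079: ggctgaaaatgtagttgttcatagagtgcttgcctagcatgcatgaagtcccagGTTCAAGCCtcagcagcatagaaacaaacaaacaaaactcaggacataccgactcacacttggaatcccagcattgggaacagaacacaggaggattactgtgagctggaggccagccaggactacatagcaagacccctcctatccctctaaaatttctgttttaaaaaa
MIRb_dup16888: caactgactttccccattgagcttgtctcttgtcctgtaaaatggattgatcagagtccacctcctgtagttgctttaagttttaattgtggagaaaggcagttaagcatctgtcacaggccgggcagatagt

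Sequence was at hand for 4335 of the copies above 0 (1.36%, holding 1.00% of SINE reads), because no whole genome was used here, and 3425 of these reached at least 80% of their subfamily's median length. Among the latter, the B box letters stood on the copy's own strand in 136 of 143 B2_Mm1a copies (95.1%), 129 of 142 B2_Mm1t copies (90.8%) and 263 of 323 B2_Mm2 copies (81.4%). The same letters were found in 71 of 358 B3 copies (19.8%), 94 of 187 B1_Mus1 copies (50.3%), 50 of 216 ID_B1 copies (23.1%) and 2 of 80 MIRb copies. In RefSeq promoter windows trimmed to the length of each subfamily, read on 1 strand, the share was 2.31% to 3.09% for these 7 subfamilies. AATAAA was present in 131 of 143 B2_Mm1a copies (91.6%), 132 of 142 B2_Mm1t copies (93.0%), 242 of 323 B2_Mm2 copies (74.9%) and 144 of 358 B3 copies (40.2%), against 8.17% to 8.48% of promoter windows of those lengths. On the opposite strand of the B2_Mm1a copies neither motif was found. A match is a description of the letters and does not show that a factor binds there.

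Copies of the young B2 subfamilies also shared long identical stretches. A run of 50 bases shared with another sequenced copy of the subfamily was found in 132 of 144 B2_Mm1a copies (91.7%), 112 of 146 B2_Mm1t copies (76.7%), 180 of 373 B2_Mm2 copies (48.3%) and 85 of 213 B1_Mus1 copies (39.9%), and in none of the B3, B3A and MIR copies. A run as long as a read, 108 bases, was shared by 22 of 144 B2_Mm1a copies (15.3%). Reads from such runs fit several copies, and the counting used by the study divides them among those copies.

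Counts over genes and TE subfamilies summed to 26063590 to 39365841 per library, of which TEs took 1.60% to 3.07% and SINEs 41.0% to 51.3% of the TE counts. Per-copy reads of all TE classes, recovered from the deposited TPM, numbered 525115 to 1071134 a library, with Nrf1 cKO replicate 1 the lowest. Whole-gene counts did not separate the genotypes at the deleted genes. Dnmt3c was at 4.12 and 4.84 CPM in WT, 2.98, 3.91 and 4.53 in Dnmt3C KO, 3.89, 4.85 and 4.01 for Nrf1 cKO, and 4.29, 4.97 and 3.50 for dKO. Nrf1 was at 56.5 and 57.7 CPM in WT, 44.4, 56.6 and 50.5 in Dnmt3C KO, 56.6, 52.0 and 57.7 for Nrf1 cKO, and 57.1, 61.2 and 60.1 for dKO. Dnmt3c may share reads with the near copy Dnmt3b, which was not tested, a disrupted gene can keep its RNA, and somatic cells keep a floxed copy of Nrf1, so these counts do not check the labels.

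Most members were thinly covered. A SINE copy had a median of 3 reads over all 11 libraries together, 131973 copies (41.3%) had reads in 1 library only, and the 13214 copies with reads in all 11 libraries (4.14%) held 42.6% of SINE reads. Copies above 0 numbered 124513 and 98844 in the WT libraries, 110914, 93325 and 88593 for Dnmt3C KO, 58012, 86431 and 79361 for Nrf1 cKO, and 120321, 88076 and 93564 for dKO. Of the copies listed for a subfamily, 12712 of 18346 B2_Mm1a copies (69.3%) and 12381 of 23218 B2_Mm1t copies (53.3%) had a value above 0. The share was 31.7% for B2_Mm2 (28492 of 90007), 20.3% for B3, 19.2% for B1_Mus1 and 16.2% for B4A. The young B2 copies above 0 numbered 25093 with a median of 7 reads, 6107 of them (24.3%) had reads in 1 library only, and 41.4% of their reads came from copies covered in all 11 libraries.

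B2 was the family with the most counts by the mean of the genotypes, at 39.5% of all SINE counts over 5 subfamilies, followed by B1 with 32.0% over 16 and B4 with 20.8% over 4. In Nrf1 cKO replicates 1 and 3, B1 was above B2. MIR held 4.79%, ID 2.77% and Deu 0.108%. B1 was at 5070 and 4493 CPM in WT, 4221, 3121 and 3828 in Dnmt3C KO, 2372, 3349 and 3869 for Nrf1 cKO, and 4808, 3565 and 3845 for dKO. B2 was at 5100 and 6554 CPM in WT, 4307, 4738 and 5352 in Dnmt3C KO, 2291, 4280 and 3532 for Nrf1 cKO, and 5264, 7249 and 3912 for dKO. Nrf1 cKO replicate 1 was the lowest library in both families, and the highest was WT replicate 1 for B1 and dKO replicate 2 for B2.

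B4 was at 3459 and 2827 CPM in WT, 2778, 1982 and 2481 in Dnmt3C KO, 1543, 2150 and 2601 for Nrf1 cKO, and 3168, 2258 and 2447 for dKO. MIR was at 802 and 611 CPM in WT, 664, 471 and 504 in Dnmt3C KO, 356, 525 and 604 for Nrf1 cKO, and 743, 482 and 619 for dKO. As in B1, WT replicate 1 was the highest library and Nrf1 cKO replicate 1 the lowest, and in each of these 3 families at least 1 dKO library lay within the WT range. The means of neighbouring genotypes, WT, dKO, Dnmt3C KO and Nrf1 cKO from the highest to the lowest, differed by less than the sum of their SDs in B1, B4 and MIR.

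**Figure D1:**
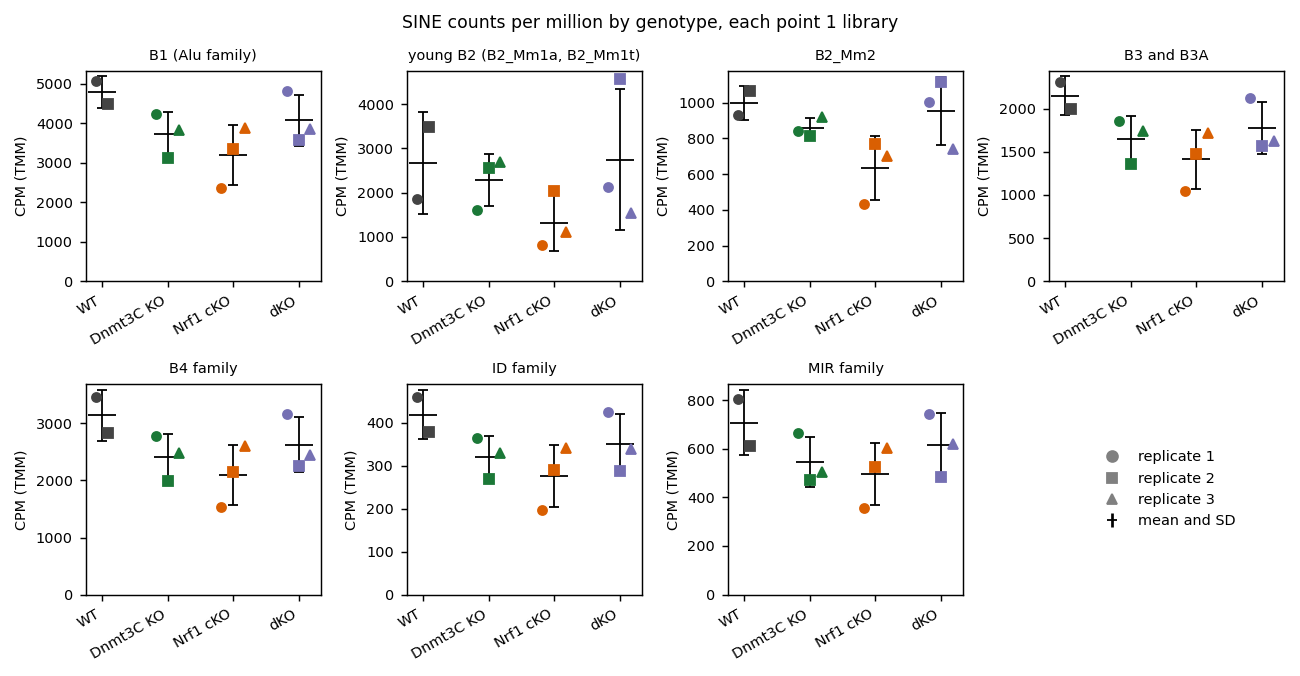
SINE CPM (TMM-scaled) on the vertical axis for 7 groups of subfamilies, by genotype on the horizontal axis. Each point is 1 library, its shape the replicate number, and the bar is the mean and SD. Young B2 spans 812 to 4563 CPM and has its highest point in dKO replicate 2, while B1 spans 2372 to 5070 CPM.

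The B2 family divided into subfamilies that behaved differently across libraries. B2_Mm1a, 11.2% of SINE counts and the subfamily with the highest mean over genotypes, was at 1128 and 2193 CPM in WT, 977, 1611 and 1681 in Dnmt3C KO, 464, 1233 and 637 for Nrf1 cKO, and 1280, 2837 and 907 for dKO. B2_Mm1t, 7.09% of SINE counts, was at 731 and 1299 CPM in WT, 631, 949 and 1012 in Dnmt3C KO, 349, 807 and 474 for Nrf1 cKO, and 858, 1726 and 638 for dKO. In both, replicate 2 of WT, Nrf1 cKO and dKO was the highest library of its genotype, and the highest library was 6.12 times the lowest for B2_Mm1a and 4.95 times for B2_Mm1t. B2_Mm2, an older B2 with 6.98% of SINE counts, was at 931 and 1067 CPM in WT, 843, 814 and 919 in Dnmt3C KO, 431, 770 and 699 for Nrf1 cKO, and 1003, 1113 and 740 for dKO. B3, 9.07% of SINE counts, was at 1485 and 1269 CPM in WT, 1186, 874 and 1115 in Dnmt3C KO, 654, 933 and 1099 for Nrf1 cKO, and 1363, 1016 and 1045 for dKO, and so was above B2_Mm1a in 6 of the 11 libraries. These older relatives had a highest to lowest ratio of 2.58 and 2.27, and in B3 the order of the WT libraries was opposite to that in young B2.

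Within genotypes, the pooled SD of log2 CPM was 0.65 for young B2, against 0.26 for B1, 0.30 for B2_Mm2, 0.27 for B3 with B3A, 0.29 for B4, 0.30 for ID, 0.32 for MIR and 0.15 for Deu. Young B2 made up 12.5% and 23.5% of SINE counts in the WT libraries, 13.02%, 24.2% and 21.5% for Dnmt3C KO, 12.0%, 19.2% and 10.1% for Nrf1 cKO, and 14.8%, 32.9% and 13.8% for dKO. The dKO libraries alone spanned most of the range seen over all 11. Without B2_Mm1a and B2_Mm1t the SINE total was 13047 and 11388 CPM in WT, 10740, 8034 and 9816 in Dnmt3C KO, 5958, 8565 and 9848 for Nrf1 cKO, and 12287, 9291 and 9630 for dKO. The close match of the WT totals, 14906 and 14880 CPM with young B2 included, was therefore the sum of a higher young B2 level and a lower level of the remaining SINEs in WT replicate 2.

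Of the other subfamilies, the best covered were ID_B1 (6.34% of SINE counts), RSINE1 (6.33%), B4A (5.34%), B3A (5.11%), B1_Mus1 (4.60%), PB1D10 (3.82%), B1_Mus2 (3.50%) and B4 (2.84%). MIRb was the leading MIR subfamily (1.63%), and ID4_ held 1.13%. B1_Mm, a young B1 subfamily, held 1.57%. B1_Mus1 was at 685 and 669 CPM in WT, 597, 461 and 571 in Dnmt3C KO, 356, 490 and 535 for Nrf1 cKO, and 674, 538 and 548 for dKO, with a pooled SD of 0.22 on the log2 scale. That spread was below the 0.69 of B2_Mm1a and the 0.59 of B2_Mm1t.

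The place of a copy was read from its position on GRCm38 against GENCODE M21 genes, with strand. Of all listed SINE copies, 25.3% lay in an intron of a gene on their own strand, 28.2% in an intron of a gene on the other strand and 43.5% outside genes. Reads were placed otherwise, with 57.4% to 74.3% (median 68.0%) over the 11 libraries in introns of the same strand, 7.25% to 13.02% antisense to introns and 16.3% to 28.1% outside genes. In 32 of the 33 subfamilies with at least 1000 listed copies, the share of reads in same-strand introns exceeded the share of listed copies in every library, with AmnSINE1 the exception.

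The size of that excess differed between subfamilies. For B1 the median share of reads in same-strand introns was 78.8% (range 73.2% to 81.5%, 11 libraries) against 25.5% of listed copies, for B3 with B3A 79.7% (74.4% to 82.3%) against 23.9%, and for B4 81.5% (76.1% to 83.8%) against 25.3%. For ID it was 80.9% (76.8% to 83.3%) against 27.7%, and for MIR 77.3% (70.4% to 80.2%) against 29.4%. The families of different origin and age were alike in this respect. B2_Mm2 was lower, at 53.4% (40.4% to 59.2%) against 22.0%. Young B2 was lowest, at 29.5% (24.7% to 34.9%) against 21.9%, so its highest library was below the lowest library of B1, B3 with B3A, B4, ID and MIR. Young B2 reads lay outside genes for 44.5% (42.0% to 48.2%) against 44.6% of listed copies, and antisense to introns for 24.2% (21.6% to 26.0%) against 30.97%. The share of young B2 reads outside genes was thus near that of the copies. In every library, same-strand introns held more of these reads than of the copies, and antisense introns held less. Dividing reads among near-identical copies would itself place reads where the copies lie, and its part was not tested.

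**Figure D2:**
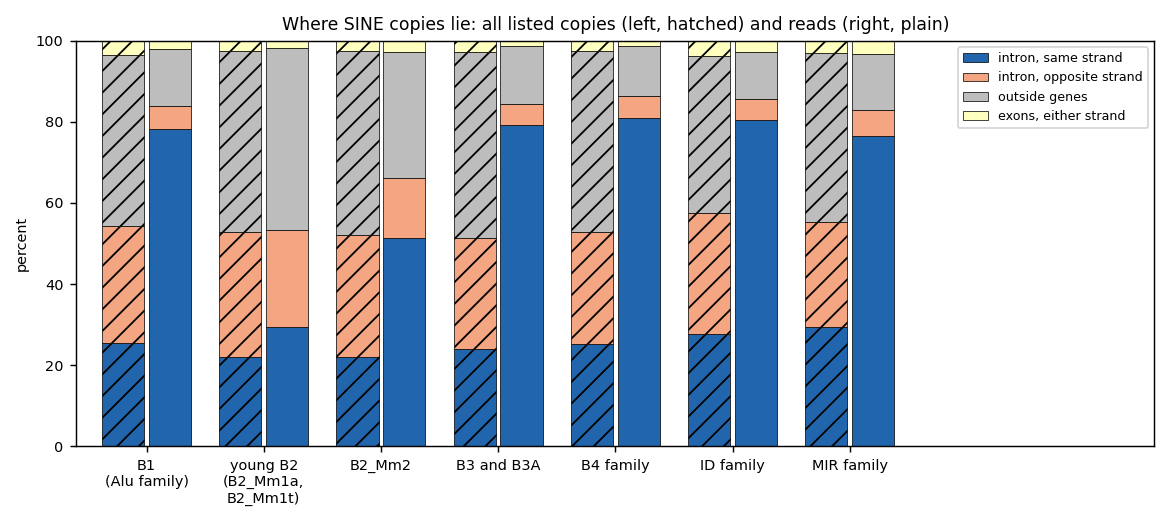
Percent of listed copies (left, hatched bars) and of reads (right, plain bars, mean of the 4 genotype means) by place in the gene annotation, for 7 groups of subfamilies. Same-strand introns take 25.5% of listed B1 copies and a median of 78.8% of B1 reads over libraries, but 21.9% and 29.5% for young B2.

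By place, and scaled as CPM to the total counts of the library without TMM, B1 reads in same-strand introns were at 4163 and 3441 in WT, 3304, 2203 and 3006 in Dnmt3C KO, 1620, 2441 and 2917 for Nrf1 cKO, and 3754, 2625 and 2851 for dKO. B1 reads elsewhere were at 948 and 925 in WT, 913, 751 and 695 in Dnmt3C KO, 594, 753 and 773 for Nrf1 cKO, and 985, 773 and 757 for dKO. The intronic part of B1 carried most of the difference between libraries. For young B2, reads outside same-strand introns were at 1292 and 2502 in WT, 1111, 1782 and 1902 in Dnmt3C KO, 498, 1405 and 680 for Nrf1 cKO, and 1472, 3320 and 1027 for dKO. Young B2 reads in same-strand introns were at 581 and 915 in WT, 495, 666 and 715 in Dnmt3C KO, 247, 548 and 364 for Nrf1 cKO, and 638, 1088 and 430 for dKO. Young B2 thus had its highest library, dKO replicate 2, and its lowest, Nrf1 cKO replicate 1, in introns as elsewhere, and in WT that order was opposite to the order of intronic B1 reads.

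Across subfamilies, the share of reads in same-strand introns was low where sequenced copies held the B box letters and shared long runs. B2_Mm1a (95.1% with the B box, 91.7% sharing a run of 50 bases) had a median intron share of 27.4% (23.3% to 30.9%, 11 libraries), B2_Mm1t 32.4% (27.0% to 40.3%) and B2_Mm2 53.4%. B1_Mm and B1_Mus2, with the B box in 66.7% and 55.1% and a shared run in 45.8% and 43.0%, stayed with the other subfamilies. B box, AATAAA and shared runs were all frequent in young B2 and cannot be told apart here. The division of multi-mapping reads among near-identical copies, which would move reads between places, was not tested.

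**Figure D3:**
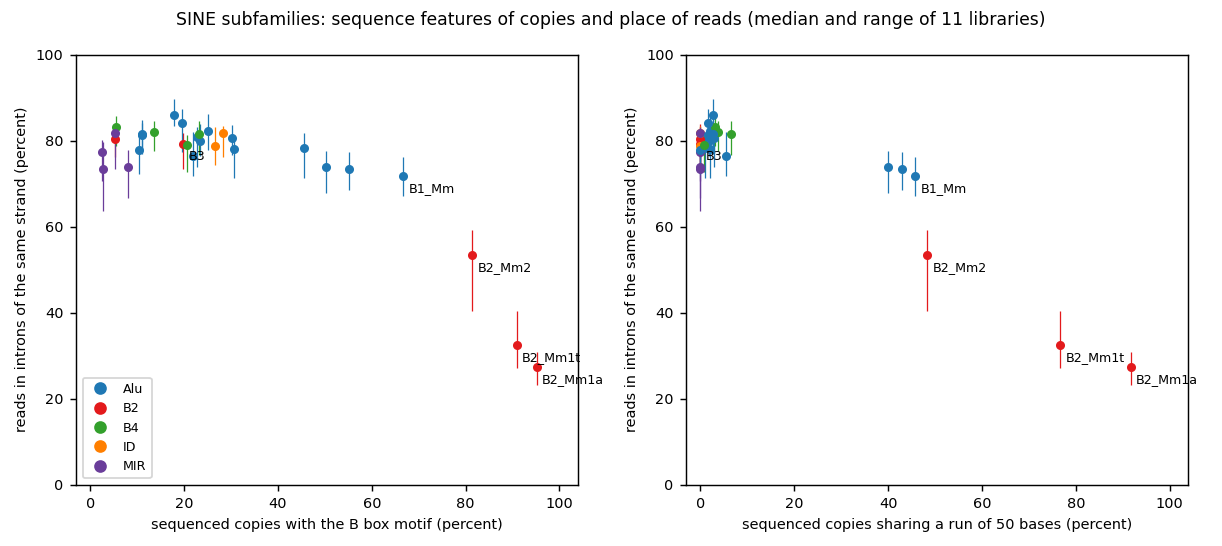
Each point is 1 SINE subfamily, coloured by family, with the median and range over 11 libraries of the percent of its reads in same-strand introns (vertical axes). The horizontal axes give the percent of sequenced copies with GTTCNANNC on their own strand (left) and with a 50-base run shared with another copy (right). B2_Mm1a and B2_Mm1t lie at the lower right in both panels, at medians of 27.4% and 32.4%.

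SINE reads in same-strand introns were spread over 16425 host genes, the top 10 of which held 2.69% and the top 100 10.4%. The leading host was Hsd17b3 (chr13:64058266-64089230, minus strand), which encodes the testicular enzyme that makes testosterone, and its 18 copies had 19468 reads. They were 2653 and 1985 in WT, 1491, 1655 and 1715 in Dnmt3C KO, 700, 1711 and 1646 for Nrf1 cKO, and 2333, 1651 and 1928 for dKO, or 0.328% to 0.602% of a library's SINE reads. Next came 2610005L07Rik (8025 reads), Chka, which encodes choline kinase (7753), and Ube2b, which encodes a ubiquitin-conjugating enzyme. Among the hosts were also Nedd4, a ubiquitin ligase (4176 reads in 60 copies), and Wt1, the transcription factor of Sertoli cells (3848 reads in 15 copies). Hosts thus included genes of somatic testis cells.

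Single copies with the highest TPM showed both kinds of place. In the B1 family, B1_Mus1_dup78164 (chr14:73954259-73954355, minus strand, antisense to an intron of Gm49164) had 545 and 669 reads in WT, 657, 673 and 680 in Dnmt3C KO, 697, 591 and 362 for Nrf1 cKO, and 545, 549 and 592 for dKO. The genotypes overlapped, and Nrf1 cKO replicate 1, the lowest library for the B1 total, was the highest for this copy. The next B1 copy by TPM was PB1_dup6046 outside genes (2171 reads). In the B2 family, the highest TPM belonged to B3A_dup41974, a fragment of 18 bases in an intron of Gm6483 (812 reads). B2_Mm1t_dup15970 (chr11:98711932-98712126, minus strand) in an intron of Med24, a subunit of Mediator, had 409 and 651 reads in WT, 360, 633 and 492 in Dnmt3C KO, 162, 496 and 142 for Nrf1 cKO, and 526, 967 and 355 for dKO. As in its subfamily, replicate 2 was the highest library of WT, Nrf1 cKO and dKO. B3A_dup41984 (chr8:20398190-20398363, minus strand, intron of 2610005L07Rik) had 490 and 780 reads in WT, 443, 526 and 575 in Dnmt3C KO, 743, 699 and 293 for Nrf1 cKO, and 441, 574 and 0 for dKO.

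In the B4 family the highest TPM likewise belonged to a fragment of 18 bases, B4A_dup75014 outside genes (624 reads). B4_dup50674 (chr13:64067490-64067735, minus strand, intron of Hsd17b3) had 587 and 397 reads in WT, 294, 373 and 376 in Dnmt3C KO, 172, 427 and 363 for Nrf1 cKO, and 502, 404 and 415 for dKO. RSINE1_dup103801 (chr16:57391674-57391797, minus strand, intron of Cmss1) had 212 and 172 reads in WT, 426, 850 and 129 in Dnmt3C KO, 187, 205 and 186 for Nrf1 cKO, and 265, 245 and 214 for dKO, so that 1 Dnmt3C KO library alone set its highest value. The leading MIR copies by TPM were MIRc_dup15412 outside genes (1706 reads), MIR3_dup13807 in Kctd17 (1877) and MIR_dup30464 in Hsd17b3 (2168), and the leading ID copies were ID_dup6397 in Hsd17b3 (2079), ID4_dup9941 in Kctd14 (1345) and ID4_dup10638 in Ankrd10 (903). Very short copies weigh on a ranking by TPM, which divides by length. Of the copies above 0, 9155 (2.87%) were shorter than 50 bases, with 1.46% of the reads, yet they made up 10 of the top 100 by TPM.

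The value of 0 for B3A_dup41984 in dKO replicate 3 was an example of a copy with many reads elsewhere and none in 1 library. Among copies with a mean of at least 30 reads, 126 of 365 young B2 copies (34.5%) were listed at 0 in at least 1 library. The count was 4 of 35 for B2_Mm2, 3 of 114 for B3 with B3A, 1 of 173 for B4, 0 of 208 for B1, 0 of 36 for MIR and 0 of 13 for ID. In addition, 8 copies with at least 100 reads formed 4 sets whose members had identical reads in every library. A value of 0 for a single young B2 copy can thus be a failed estimate, and such copies are given by library.

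In the genotype comparisons, fewer cells of a type and less RNA per cell cannot be told apart, because RNA came from whole testis. Nothing states that the libraries of a genotype came from different litters, and p-values measure the spread between these samples. All 35 subfamilies could be tested in each of the 8 comparisons, which were Dnmt3C KO, Nrf1 cKO and dKO over WT, dKO over Nrf1 cKO and over Dnmt3C KO, each deletion over intact in all 11 libraries, and the interaction. The comparisons share libraries and are not independent of each other. Called SINE subfamilies at an adjusted p under 0.01 were 0 by edgeR and 0 by DESeq2 in each. Of all genes and subfamilies tested the share called by edgeR was 0% in the 5 pairwise comparisons and the interaction and 0.00458% in each of the 2 deletion effects. By DESeq2 it was 0.1% in Dnmt3C KO over WT, 0.145% in Nrf1 cKO over WT, 0.0149% in dKO over WT, 0% in the interaction and 0.0454% to 0.161% in the other 4.

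In Dnmt3C KO over WT, all 35 log2 fold changes lay below 0, with a median of -0.38 from -0.48 in ID2 to -0.17 in AmnSINE1. The median was -0.34 for all TE subfamilies and 0.01 for all features tested. At an unadjusted p under 0.05, 9 subfamilies were lower by edgeR and 20 by DESeq2 and none was higher, against 2.86% of all features lower and 2.56% higher by edgeR and 2.17% lower and 2.43% higher by DESeq2. In 23 subfamilies every Dnmt3C KO library lay below both WT libraries, against 10.6% of all features. The same held for 348 of 880 TE subfamilies of all classes, with 31 above both. ID2, an ID subfamily derived from a transfer RNA, had the smallest p, with a log2 fold change of -0.48 (SE 0.17, edgeR adjusted p = 0.89). PB1 was at -0.36, ID4_ at -0.41, B3 at -0.39 and B2_Mm1a at -0.24 (SE 0.30, edgeR adjusted p = 0.98). The sign did not hold for B2_Mm1a, which was at 0.33 without WT replicate 2 and at 0.027 scaled to TE counts, while the median of the 35 was -0.50 and -0.15 under these settings. B2_Mm1t had a mean of 864 CPM in Dnmt3C KO, which was also above WT replicate 1 (731 CPM). The count at p under 0.05 was 0 without Dnmt3C KO replicate 2, against 2.2% of all features lower, and 1 without Dnmt3C KO replicate 3, against 2.26%. It was 21 without Dnmt3C KO replicate 1, against 2.44% of all features lower. The median was -0.25 without WT replicate 1.

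In Nrf1 cKO over WT, all 35 were again below 0, with a median log2 fold change of -0.61 against -0.56 for all TE subfamilies, and 27 were lower at an unadjusted p under 0.05 by edgeR and 27 by DESeq2, against 4.22% of all features lower and 1.53% higher by edgeR and 3.15% lower and 1.98% higher by DESeq2. In 29 subfamilies the Nrf1 cKO libraries lay below both WT libraries, against 11.2% of all features lower and 10.4% higher. The same held for 503 of 863 TE subfamilies of all classes, with 2 above both. PB1, an old B1 relative, had the smallest p, with a log2 fold change of -0.63 (SE 0.20, edgeR adjusted p = 0.83), and ID2 was at -0.69 (SE 0.23). B2_Mm1a had the lowest value, -1.10 (SE 0.40, edgeR adjusted p = 0.83), followed by B2_Mm1t at -0.91 (SE 0.35, edgeR adjusted p = 0.85), B2_Mm2 at -0.67 and B3 at -0.64. B2_Mm1a passed the threshold with no count filter (edgeR adjusted p = 0.0061), a setting in which 0.419% of all features were called. RSINE1 was at -0.61, B1_Mus1 at -0.58, MIRb and ID_B1 both at -0.56. Without WT replicate 2, B2_Mm1a was at -0.55 and the median of the 35 at -0.71, so the order with young B2 lowest rested on that library, and B2_Mm1a was at -1.61 without Nrf1 cKO replicate 2. Without Nrf1 cKO replicate 1, which was lowest in each family, 2 subfamilies were lower at an unadjusted p under 0.05, against 5.01% of all features, and the median was -0.43. The count was 11 without Nrf1 cKO replicate 2, against 2.74% of all features lower, and 32 without Nrf1 cKO replicate 3, against 5.14%. The median was -0.45 without WT replicate 1.

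In dKO over WT the median was -0.24, with 34 of 35 subfamilies below 0. None had an unadjusted p under 0.05 by edgeR, against 0.544% of all features higher and 1.19% lower, or by DESeq2, against 0.695% and 0.863%, and the libraries overlapped in every subfamily, against 7.12% of features with all dKO libraries above WT and 6.35% below. B2_Mm1a was at -0.0031 (SE 0.46) and B2_Mm1t at 0.07, with dKO replicate 2 above both WT libraries and dKO replicate 3 below WT replicate 1. In dKO over Dnmt3C KO the median was 0.14, and -0.022 without dKO replicate 1, and 0 subfamilies had an unadjusted p under 0.05, against 3.1% of features higher and 4.08% lower by edgeR, and 2.51% and 3.42% by DESeq2. The libraries overlapped in every subfamily, against 6.28% of features with dKO above and 7.12% below.

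In dKO over Nrf1 cKO all 35 lay above 0, with a median of 0.35, or -0.028 scaled to TE counts. The 3 with an unadjusted p under 0.05 by edgeR, against 1.94% of all features higher and 0.868% lower, were B2_Mm1t at 0.98 (SE 0.39), B2_Mm1a at 1.102 (SE 0.45) and B2_Mm2 at 0.59 (SE 0.24), each with an edgeR adjusted p of 1.0. Without dKO replicate 2 B2_Mm1a was at 0.51, and it was at 1.61 without Nrf1 cKO replicate 2. By DESeq2 1 subfamily was higher, against 1.83% of all features higher and 0.79% lower. In 2 subfamilies each library of dKO exceeded each of Nrf1 cKO, against 4.09% of features, and in none was it below, against 3.37%. Without Nrf1 cKO replicate 1 no subfamily had an unadjusted p under 0.05, against 2.63% of all features higher, and the median was 0.15. The count was 23 without Nrf1 cKO replicate 3, against 3.84% of all features higher, and 5 without dKO replicate 2, against 2.12% higher.

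The effect of Dnmt3C deletion without Nrf1 (dKO over Nrf1 cKO) minus that with Nrf1 (Dnmt3C KO over WT), the interaction, had a median of 0.73 over SINE subfamilies and 0.68 over all TE subfamilies. There were 26 SINE subfamilies above 0 at an unadjusted p under 0.05 by edgeR and 27 by DESeq2, against 3.68% of all features higher and 1.87% lower by edgeR and 2.83% higher and 1.94% lower by DESeq2. ID2 had the smallest p, with 0.86 (SE 0.28, edgeR adjusted p = 0.90), and B2_Mm1a was at 1.34 (SE 0.64, edgeR adjusted p = 0.90), or 0.72 without dKO replicate 2 and 0.77 without WT replicate 2. The count was 7 without Nrf1 cKO replicate 1, against 4.26% of all features higher. It was 4 without Dnmt3C KO replicate 2, against 2.35%, and 4 without dKO replicate 1, against 2.82%. The median of the interaction was 0.58 without WT replicate 1. Over all 11 libraries, Nrf1 deletion had a median of -0.20 and Dnmt3C deletion 0.01, with 0 subfamilies at an unadjusted p under 0.05 by edgeR in either, against 3.57% of features higher and 4.3% lower with Nrf1 deleted and 1.78% higher and 1.03% lower with Dnmt3C deleted. By DESeq2 1 was lower with Nrf1 deleted, against 3.92% of features lower and 3.12% higher, and 0 were at that p with Dnmt3C deleted, against 2.07% higher and 0.99% lower. Deleted and intact libraries overlapped in every subfamily. Of all features, 0.302% had each Nrf1-deleted library above and 0.448% below the intact ones, and 0.178% and 0.0412% for Dnmt3C.

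**Figure D4:**
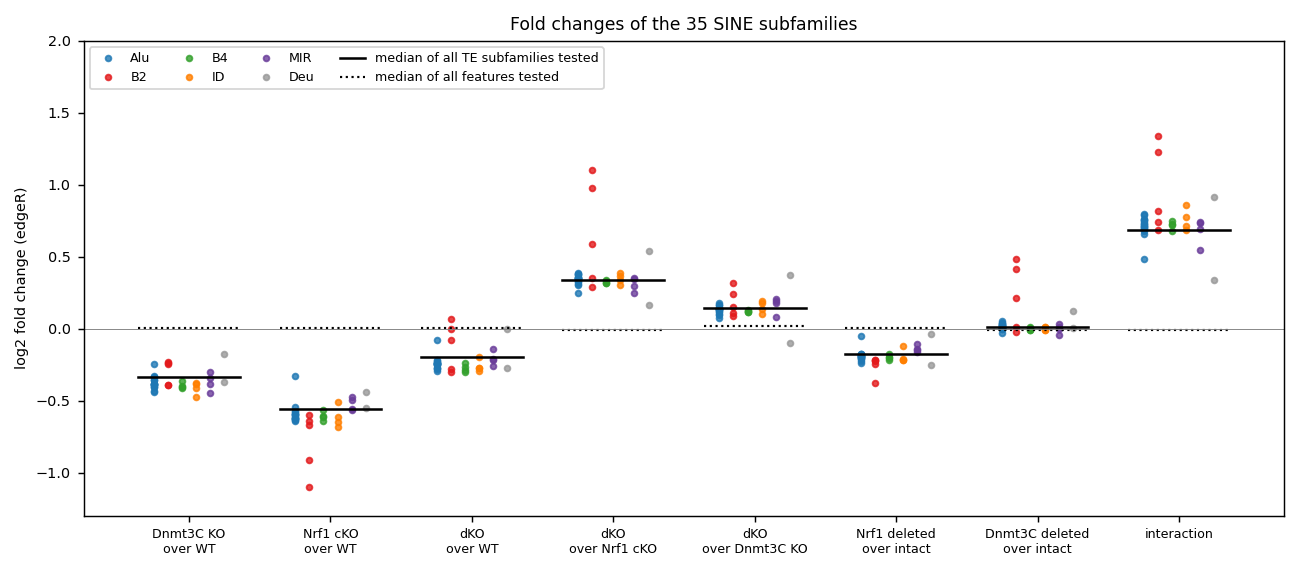
Log2 fold changes of the 35 SINE subfamilies (points, coloured by family) in the 8 comparisons on the horizontal axis, from edgeR. The solid line is the median of all TE subfamilies tested and the dotted line the median of all genes and subfamilies. Points sit around the TE median in each comparison, -0.34 in Dnmt3C KO over WT and -0.56 in Nrf1 cKO over WT, and B2_Mm1a and B2_Mm1t lie farther from it in Nrf1 cKO over WT (-1.10 and -0.91), dKO over Nrf1 cKO (1.102 and 0.98), the interaction (1.34 and 1.23) and Dnmt3C deletion (0.48 and 0.41, where the TE median was 0.01).

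Scaled to the TE counts of the library, which shifts the median of all features by 0.25 in Dnmt3C KO over WT, 0.53 in Nrf1 cKO over WT and -0.67 in the interaction, the SINE medians became -0.15, -0.13 and 0.12, and 0 of 35 subfamilies had an unadjusted p under 0.05 in any comparison. SINEs held 41.0% to 51.3% of TE counts in the 11 libraries, so this scaling removes part of any SINE shift by its construction. Values already near 0 need not move closer, as the SINE median in Dnmt3C deletion went from 0.01 to -0.08. B2_Mm1a was at 0.027 in Dnmt3C KO over WT on this scale. In CPM and at the same unadjusted threshold, 245 of 863 TE subfamilies were lower and 0 higher in Nrf1 cKO over WT, and 126 of 880 were lower and 17 higher in Dnmt3C KO over WT. In the interaction 258 of 904 were above 0 and 1 below.

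Markers of testis cell types also differed between the libraries. The summed level of the 20 germ cell markers was 621 and 483 CPM in WT, 897, 508 and 585 in Dnmt3C KO, 343, 198 and 245 for Nrf1 cKO, and 541, 449 and 241 for dKO. Ddx4, a germ cell helicase, was at 65.1 and 60.5 CPM in WT, 84.1, 55.9 and 72.2 in Dnmt3C KO, 39.4, 17.4 and 19.7 for Nrf1 cKO, and 55.6, 52.7 and 26.9 for dKO, and so was detected in every library. In Nrf1 cKO over WT, 16 of the 20 markers were lower at an unadjusted p under 0.05, against 4.22% of all features lower and 1.53% higher, with a median log2 fold change of -1.24, and none passed the adjusted test. In each Nrf1 cKO library the germ cell sum and the SINE total were both below those of both WT libraries. The lowest germ cell sum and the lowest SINE total were in different Nrf1 cKO libraries. The 10 Sertoli markers summed to 3688 and 3394 CPM in WT, 3761, 4707 and 4021 in Dnmt3C KO, 4028, 4269 and 6613 for Nrf1 cKO, and 4254, 4933 and 4235 for dKO. Their median log2 fold change was 0.48 in Nrf1 cKO over WT, where 2 (Amh and Inhbb) were higher at an unadjusted p under 0.05, and 0.38 with Nrf1 deleted, where 4 were higher against 3.57% of all features. Leydig markers summed to 764 to 1778, peritubular markers to 1567 to 2576, endothelial markers to 237 to 405, macrophage markers to 38.7 to 91.4 and red blood cell markers to 263 to 2112. The red blood cell sum was 653 and 2112 CPM in WT 780, 564 and 548 in Dnmt3C KO, 338, 1765 and 308 for Nrf1 cKO, and 425, 263 and 779.5 for dKO. WT replicate 2 and Nrf1 cKO replicate 2 stood above the other 9 libraries. The part of these cell types in the SINE differences was not tested.

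Of 8 long RNAs kept in the nucleus, 7 were in the table, and their median log2 fold change was -0.54 in Dnmt3C KO over WT, -0.48 in Nrf1 cKO over WT and 0.65 in the interaction, against 0.01, 0.02 and -0.03 over all genes. Malat1, a nuclear speckle RNA, was at 655 and 373 CPM in WT, 396, 232 and 392 in Dnmt3C KO, 228, 315 and 429 for Nrf1 cKO, and 475, 280 and 447 for dKO. Kcnq1ot1, an imprinted antisense RNA, was at 27.3 and 19.997 CPM in WT, 17.5, 12.6 and 14.6 in Dnmt3C KO, 11.1, 17.0 and 21.3 for Nrf1 cKO, and 25.1, 14.9 and 18.3 for dKO. The summed list was highest in WT replicate 1 (1544 CPM) and lowest in Dnmt3C KO replicate 2 (714), and within dKO it was highest in replicate 3 (1335). At an unadjusted p under 0.05, 4 of the 7 were lower in Dnmt3C KO over WT, against 2.86% of all features lower and 2.56% higher, namely Airn at -0.77 (edgeR adjusted p = 0.57), Kcnq1ot1 at -0.68 (edgeR adjusted p = 0.79), Malat1 at -0.61 (edgeR adjusted p = 0.89) and Meg3 at -0.54. The part of nuclear RNA in the SINE differences was not tested.

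Among single copies, 29872 of the 319356 SINE copies, within 39040 TE copies, reached a mean of 5 TPM and were tested with limma on log2(TPM + 1), where the fold change of a low copy is understated. Called SINE copies at an adjusted p under 0.01 were 0 in each of the 8 comparisons (306 in Nrf1 cKO over WT without WT replicate 2, or 1.02% of SINE copies against 1.13% of other TE copies), and the share of all TE copies called was 0% except in Dnmt3C deletion, where 1 TE copy of another class gave 0.00256%. At an unadjusted p under 0.05, 647 SINE copies were higher and 570 lower in Dnmt3C KO over WT (all TE copies 2.39% and 1.9%), 576 and 628 in Nrf1 cKO over WT (2.04% and 1.99%), 579 and 465 in dKO over WT (1.97% and 1.5%), and 766 and 603 in dKO over Nrf1 cKO (2.47% and 1.94%). With Dnmt3C deleted they were 791 and 643 (2.72% and 2.09%), with Nrf1 deleted 637 and 735 (2.14% and 2.29%), in dKO over Dnmt3C KO 678 and 519 (2.21% and 1.78%) and in the interaction 721 and 522 (2.32% and 1.78%). The share of SINE copies at an unadjusted p under 0.05 ran from 3.49% to 4.80% over the 8 comparisons, and that of other TE copies from 3.42% to 5.02%. In each comparison the SINE share was thus near that of the other TE copies. The TPM and the recovered reads of copies are scaled within TE copies alone. A shift shared by all TEs is therefore largely removed from these tests of copies. In Nrf1 cKO over WT the median log2 fold change was -0.18 for SINE copies, against -0.61 for SINE subfamilies.

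On whole reads recovered from the TPM, edgeR called 1 SINE copy in the Dnmt3C deletion effect, against 0.0922% of TE copies, and 0 in the other comparisons, against 0.103% of TE copies in Dnmt3C KO over WT and 0% in the rest. The copy, B2_Mm1a_dup1605, lay outside genes at chr2:87721620-87721811 on the plus strand. It had 3 and 1 reads in WT, 16, 40 and 19 in Dnmt3C KO, 2, 2 and 0 for Nrf1 cKO, and 44, 80 and 24 for dKO, so that each library without Dnmt3C lay above each library with it, 1 of which was listed at 0. The adjusted p was 0.00068 by edgeR on reads and 0.041 by limma. With 0 to 3 reads in each intact library, the copy reached the mean of 5 TPM only through the libraries without Dnmt3C, so it had to be higher in them, and the call and the lack of overlap are given as a description with no fold change.

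Other young B2 copies were picked after their values were seen, from those with a small limma p in the same effect. Those higher with Dnmt3C deleted are given first, though the p of the lower ones was smaller. B2_Mm1t_dup17652 (chr13:40625808-40626000, plus strand, outside genes) had 3 and 23 reads in WT, 109, 166 and 158 in Dnmt3C KO, 8, 63 and 9 for Nrf1 cKO, and 120, 173 and 83 for dKO, with no overlap between the deleted and intact libraries and a limma log2 fold change of 3.13 (SE 0.57, adjusted p = 0.16). B2_Mm1a_dup8879 (chr9:40134721-40134909, minus strand, outside genes) had 0 and 3 reads in WT, 13, 26 and 11 in Dnmt3C KO, 0 in each Nrf1 cKO library, and 16, 53 and 6 in dKO, with limma adjusted p = 0.13, and it too reached the mean of 5 TPM only through the libraries without Dnmt3C.

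Lower with Dnmt3C deleted were B2_Mm1a_dup2641 and B2_Mm1a_dup3262. B2_Mm1a_dup2641 (chr3:69442589-69442761, minus strand, antisense to an intron of Ppm1l) had 94 and 161 reads in WT, 62, 0 and 1 in Dnmt3C KO, 53, 93 and 29 for Nrf1 cKO, and 0, 0 and 2 for dKO (limma adjusted p = 0.10). B2_Mm1a_dup3262 (chr4:34935812-34935995, minus strand, outside genes) had 101 and 124 reads in WT, 20, 20 and 0 in Dnmt3C KO, 26, 61 and 56 for Nrf1 cKO, and 0, 2 and 0 for dKO (limma adjusted p = 0.091). Deleted and intact libraries overlapped for the former in Dnmt3C KO replicate 1 alone, and for the latter not at all. Both rest on libraries listed at 0, which can be failed estimates, and no fold change is given.

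**Figure D5:**
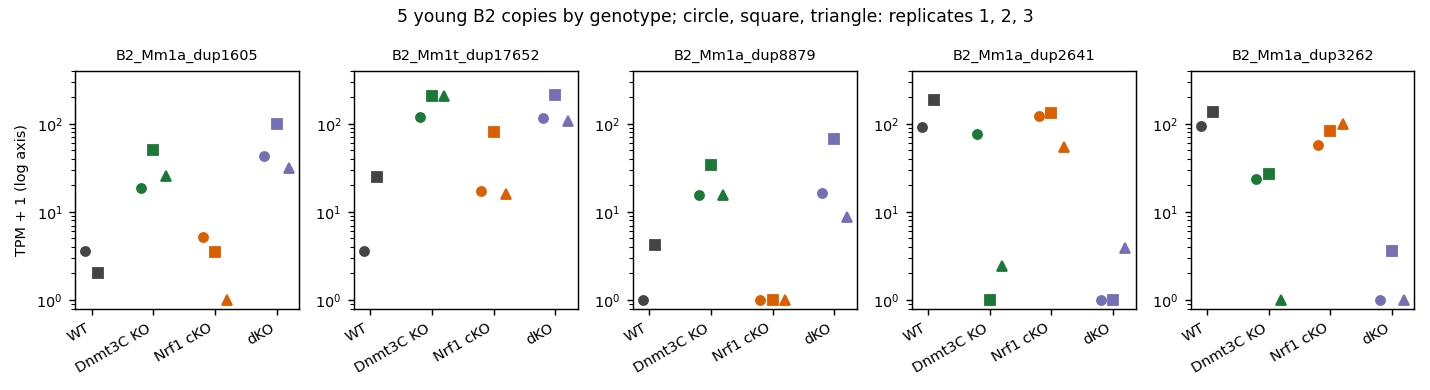
TPM + 1 on a log axis for 5 young B2 copies by genotype, with 1 point per library shaped by replicate number. B2_Mm1a_dup1605, B2_Mm1t_dup17652 and B2_Mm1a_dup8879 are higher in each Dnmt3C KO and dKO library than in each WT and Nrf1 cKO library, and B2_Mm1a_dup3262 is lower. B2_Mm1a_dup1605 and B2_Mm1a_dup8879 reached the mean of 5 TPM only through the libraries without Dnmt3C, so they had to be higher there. All but B2_Mm1a_dup1605 were picked after their values were seen.

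Genes that make, bind or repress SINE RNA were followed in the same tables, and none passed the adjusted test in any comparison. All 21 genes of RNA polymerase III and TFIIIC were tested, and their summed level was 998 to 1181 CPM over the libraries. At an unadjusted p under 0.05, 2 of the 21 were lower in Dnmt3C KO over WT, against 2.86% of all features, Bdp1, a TFIIIB subunit, at -0.35 (SE 0.14, edgeR adjusted p = 0.89) and Polr3b, a catalytic subunit of the polymerase, at -0.32. In Nrf1 cKO over WT 1 of the 21 was lower, against 4.22% of all features, so the list was near the share over all features. That gene, Polr3f, was at -0.38 (edgeR adjusted p = 0.86), with 39.4 and 49.1 CPM in WT, 36.8, 39.0 and 38.8 in Dnmt3C KO, 35.6, 33.04 and 34.6 for Nrf1 cKO, and 40.7, 40.7 and 42.5 for dKO. Each Nrf1 cKO library was below every library of the other genotypes for Polr3f, where 11.2% of all features had Nrf1 cKO below both WT libraries.

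Of 5 genes for proteins that bind or modify SINE RNA, 4 were in the table. Srp14, whose protein binds the 7SL-related fold of B1 RNA, was at 51.8 and 64.2 CPM in WT, 88.4, 77.7 and 79.4 in Dnmt3C KO, 52.0, 70.2 and 66.1 for Nrf1 cKO, and 71.0, 60.3 and 69.7 for dKO, with a log2 fold change of 0.48 in Dnmt3C KO over WT (SE 0.15, edgeR adjusted p = 0.82). Every Dnmt3C KO library was above both WT libraries, as in 10.6% of all features. Srp14 was the 1 gene of the 4 with an unadjusted p under 0.05 there, against 2.56% of all features higher and 2.86% lower. In dKO over Dnmt3C KO, 2 of the 4, Srp14 and Srp9, were lower at that p, against 4.08% of all features. Among 15 genes of heterochromatin and DNA methylation, Hells, a remodeller needed for DNA methylation at repeats, was at 102 and 132 CPM in WT, 119, 101 and 110 in Dnmt3C KO, 70.5, 54.9 and 63.7 for Nrf1 cKO, and 108, 107 and 96.9 for dKO. It had a log2 fold change of -0.91 in Nrf1 cKO over WT (SE 0.18, edgeR adjusted p = 0.58) and of 0.72 in dKO over Nrf1 cKO (edgeR adjusted p = 0.69). Each Nrf1 cKO library was below every other library, where 11.2% of all features had Nrf1 cKO below both WT libraries. Hells was the 1 gene of the 15 with an unadjusted p under 0.05 in Nrf1 cKO over WT, against 4.22% of all features lower and 1.53% higher. The list was thus near the share over all features. Among the 6 genes that handle double-stranded RNA, Dicer1 was at -0.34 in Dnmt3C KO over WT. It was the 1 gene of the 6 with an unadjusted p under 0.05 there, against 2.86% of all features lower and 2.56% higher. In the interaction 2 of the 6, Dicer1 and Dhx9, were higher at that p, against 3.68% of all features higher and 1.87% lower.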

How the data were processed

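Poly(A) RNA of 11 testes was sequenced paired-end with the strand kept. Per the labels and methods, the authors aligned reads with STAR 2.7.3a and counted genes and TE subfamilies (TEtranscripts) and single copies (TElocal) on GRCm38 with GENCODE M25, dividing multi-mapping reads. The deposited tables held raw counts for pairs of genotypes and TPM per copy. The authors' own comparison columns (score, log2 and p-value, DESeq2 1.44.0) were not used. The TPM values were whole multiples of a 1-read step (100% within 0.01 of a whole read), which gave reads per copy.

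Subfamilies and genes were tested together with edgeR 4.0.16 (quasi-likelihood, TMM, low-count filter), and copies with limma 3.58.1 on log2(TPM + 1) at a mean of at least 5 TPM, each with Benjamini-Hochberg adjustment over all features and a threshold of 0.01. Alternatives were DESeq2 1.42.0, other scalings, filters and pseudocounts, libraries left out, a replicate block and, chosen after seeing the data, edgeR on recovered reads. CPM are TMM-scaled. The scripts were tested on simulated data. Copies were placed with bedtools 2.31.1 by at least 50% of their length. Named subfamilies were the 12 most abundant, young ones, the leading MIR and ID, and those with the smallest p. Named copies were the 3 highest by TPM in each family, called ones and, beyond that rule, copies picked after their values were seen. Of these, 1 copy under the rule is not reported here. Members and lists were chosen with earlier results of these data known.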

Additional observations from a re-analysis of the deposited data

How the results depend on the processing

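The 0 called SINE subfamilies held under each alternative except in Nrf1 cKO over WT, where 1 was called with no count filter (B2_Mm1a, -1.09, edgeR adjusted p = 0.0061, with 0.419% of all features called) and 1 with the replicate block (B2_Mm1a, -1.06, edgeR adjusted p = 0.0088, with 0.398% called). The replicate numbers did not pair the samples, since correlations of same-numbered libraries ran from -0.31 to 0.26 with 4 of 15 pairs over 0.1. These are the title numbers, from which the deposited column names differ for replicate 3 of Dnmt3C KO and of dKO, and for no library of Nrf1 cKO over WT. As a share of TE counts, the log2 difference of the SINE total was -0.20 in Nrf1 cKO over WT (-0.69 in CPM) and 0.11 in dKO over Nrf1 cKO (0.50 in CPM). Of SINE copies, 306 were called in Nrf1 cKO over WT without WT replicate 2, where WT is 1 library assumed to vary like the others, so the count ran from 0 to 306 (1.05% of all TE copies called). In Dnmt3C deletion 1 was called at an adjusted p under 0.05, 1 by edgeR on recovered reads, and 0 to 1 with a library left out (B2_Mm1a_dup2641, limma adjusted p = 0.0011, without Dnmt3C KO replicate 1). The log2 fold change of B2_Mm1a in Dnmt3C KO over WT (-0.24) became 0.027 scaled to TE counts and ran from -0.63 to 0.33 with a library left out, the highest without WT replicate 2. In dKO over Dnmt3C KO (0.24) it ran from -0.38 without dKO replicate 2 to 0.53. In dKO over WT (-0.0031) it was 0.018 by DESeq2, 0.013 with DESeq2 size factors, 0.023 with no filter, 0.094 scaled to TE counts and 0.26 with the replicate block, and ran from -0.61 to 0.55 with a library left out, being above 0 without WT replicate 2, dKO replicate 1 or dKO replicate 3. The cause was not tested. Thin coverage limits the tests of single copies, and 2 WT libraries limit the comparisons that use WT.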

Other observations

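The copy ID_B1_dup13670, on the plus strand at chr2:164766441-164766512 in an intron of Dnttip1, had reads in neither WT library, 20, 8 and 11 for Dnmt3C KO, 0, 0 and 5 for Nrf1 cKO, and 1, 2 and 0 for dKO. It was picked after its values were seen. The copy reached the mean of 5 TPM only through the Dnmt3C KO libraries, so it had to be higher in them and no test result is given.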
